A study of Mus musculus with 8 samples.

Results

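The genes described here are those of the cytosolic ribosomal proteins, taken by symbol. A gene row was a member where its symbol was Rps or Rpl followed by digits, with an optional a, x or y and a further digit, or was Rplp0, Rplp1, Rplp2 or Rpsa, which left out paralogs ending in l and rows ending in -ps. This gave 79 of 54146 gene rows, 33 of the small and 46 of the large subunit. Of these, 77 are annotated as protein coding, while Rps3a2 and Rps3a3 are annotated as processed pseudogenes and are near-identical to Rps3a1. The data are single-cell UMI counts (counts of unique molecular identifiers, each standing for 1 captured mRNA molecule) from mouse ES cells grown for 2 days on a layer of mouse embryonic fibroblast (MEF) feeder cells in LIF/2i medium, either untreated (control) or treated with CX-5461, an inhibitor of RNA polymerase I, the enzyme that transcribes rRNA genes. The labels give neither the dose nor the time of the treatment. They list 4 samples per condition, but all barcodes of a condition stand in 1 table without their sample, so each condition was 1 library, the drug and the library cannot be told apart, and no difference between conditions was tested. The comparison asks which ribosomal protein mRNAs did not follow the common change of the family when rRNA synthesis was inhibited.

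A cytosolic ribosome is built from rRNA and about equal numbers of its many proteins, each encoded by a separate gene. Most of these mRNAs are short and abundant, and they start with a C followed by a run of pyrimidines, the terminal oligopyrimidine (TOP) motif, through which their translation is controlled together. RPL5 and RPL11 form with 5S rRNA a particle that, when ribosome assembly is disturbed, binds MDM2, the ubiquitin ligase that holds p53 low. Processed pseudogenes, copies of mRNAs inserted back into the genome, are common for this family, and reads of like sequence may be counted at such a copy.

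The start regions are shown because they are the feature that members are known to share. RefSeq (GRCm38.p6) start windows were at hand for 57 of the 79 members, and the stretch from 30 bases before to 50 bases after the annotated start was searched, on the gene's strand only, for a C followed by at least 5 C or T. Such a run was found in 84.2% of the 57 members and in 49.6% of 27025 genes. The letters CTTTC occurred in 49.1% of members against 10.1% of all genes, and CTCTT in 49.1% against 11.0%. A run found in this way need not stand at the first base of the mRNA, as the TOP motif does. Relative to the annotated start, the runs printed below began at places from -20 (Rpl5) to 29 (Rpl37). Windows of 30 bases follow, with the first such run in capitals, for 4 members that were low in CX-5461-treated ES cells (Rpl38, Rpl37, Rpl37a and Rpl35), 4 that were high (Rpl4, Rpl14, Rps6 and Rpl18), and Rpl5 and Rpl11.
Rpl38 (chr11:114668572-114668601, + strand): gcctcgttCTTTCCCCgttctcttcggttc
Rpl37 (chr15:5116633-5116662, + strand): cgggggtgCTTTCTCTTCCggtctctttgg
Rpl37a (chr1:72711276-72711305, + strand): cattgcgtCCCTTCCTCTTCggacttgggc
Rpl35 (chr2:39005117-39005146, - strand): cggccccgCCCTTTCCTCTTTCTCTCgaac
Rpl4 (chr9:64173362-64173391, + strand): tgacaagtCTTTCCTTTTCCTgtgggagca
Rpl14 (chr9:120571501-120571530, + strand): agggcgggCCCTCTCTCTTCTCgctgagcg
Rps6 (chr4:86857347-86857376, - strand): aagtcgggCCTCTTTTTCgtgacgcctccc
Rpl18 (chr7:45718064-45718093, + strand): gcaggccgCTCTTTCCCCgcccactccggc
Rpl5 (chr5:107900500-107900529, + strand): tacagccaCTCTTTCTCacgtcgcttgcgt
Rpl11 (chr4:136053391-136053420, - strand): aaagcccgCCTCCTgacccataaggccacg
Both the low and the high members carry a run. Of members with a window, 78.9% of the 19 that departed downward in ES cells and 75% of the 8 that departed upward held 1, so such runs were found in both groups.

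Cells were clustered without any ribosomal protein gene. ES-like clusters were those in which ES cell markers were kept, of which cells holding 5000 UMIs or more, with a mitochondrial share of 0.1 or less, were used, 2344 control and 3928 CX-5461 cells with 41350557 and 60497796 UMIs in all. Feeders were the fibroblast-like cluster, 216 control and 162 CX-5461 cells with 4551375 and 3924460 UMIs. The ES and fibroblast names were given from the markers, so the marker sums describe the classes and do not check the names. All 15 fibroblast markers had UMIs in feeders and summed to 21826 and 18652 CPM (counts per 1000000 UMIs of the class) there, against 353 and 439 CPM in ES cells. The 12 ES markers summed to 7702 and 8198 CPM in ES cells against 536 and 433 CPM in feeders. ES cells of the libraries fell into different clusters, and the median mitochondrial share of the ES cells was 1.88% in control and 4.00% with CX-5461. Macrophage markers in feeders summed to 210 CPM in control, with all 7 markers present, and to 16.8 CPM with CX-5461, with Ptprc, C1qa and C1qb at 0, and the part of these cells in the feeder values was not tested. No pair of barcodes in the libraries had identical counts.

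Ribosomal protein mRNAs made up less of the captured mRNA in the CX-5461 library in both cell types. Members took 29.3% of UMIs in control and 24.1% in CX-5461 ES cells, and 28.2% and 23.7% in feeders. The median log2 ratio of CX-5461 over control, each member taken as a share of its class total, was -0.24 in ES cells over 79 members, against 0.36 over 11558 genes compared, and 73 members lay below that gene-wide median. In feeders the members' median was -0.16, against 0.16 over 3917 genes, with 60 members below. A gene was compared where it had at least 200 UMIs over both libraries, which all 79 members passed in both cell types. Of all genes compared, 20.5% lay at least 0.5 below the gene-wide median in ES cells and 18.5% in feeders, and of the members 59.5% and 41.8%. All these are shares of captured mRNA, so they give no amount per cell. A trimmed-mean (TMM) factor of 0.40 in ES cells and 0.16 in feeders on the log2 scale would put the members' medians at -0.64 and -0.32.

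Members did not all change alike, and departing was about as common among all genes as among members. A member was counted as departing where its log2 ratio lay at least 0.5 (1.41-fold) from the members' own median, a rule of size that does not depend on how the libraries are scaled. In ES cells 25 members (31.6%) departed downward and 10 (12.7%) upward, leaving 44 near the common change. In feeders 20 (25.3%) departed downward and 9 (11.4%) upward, leaving 50. For comparison, over all genes compared, and around their own median, the shares in ES cells were 20.5% downward and 23.8% upward, and in feeders 18.5% and 16.8%. Both directions together, the share of members was thus close to that of all genes, with more of the members' departures downward. The member spread was 0.75 (SD of log2 ratios) in ES cells against 1.10 over all genes, and 0.72 against 0.66 in feeders. The intervals in the text are exact 95% intervals that cover counting error only, and for most members they are narrower than the rule by far.

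**Figure D1:**
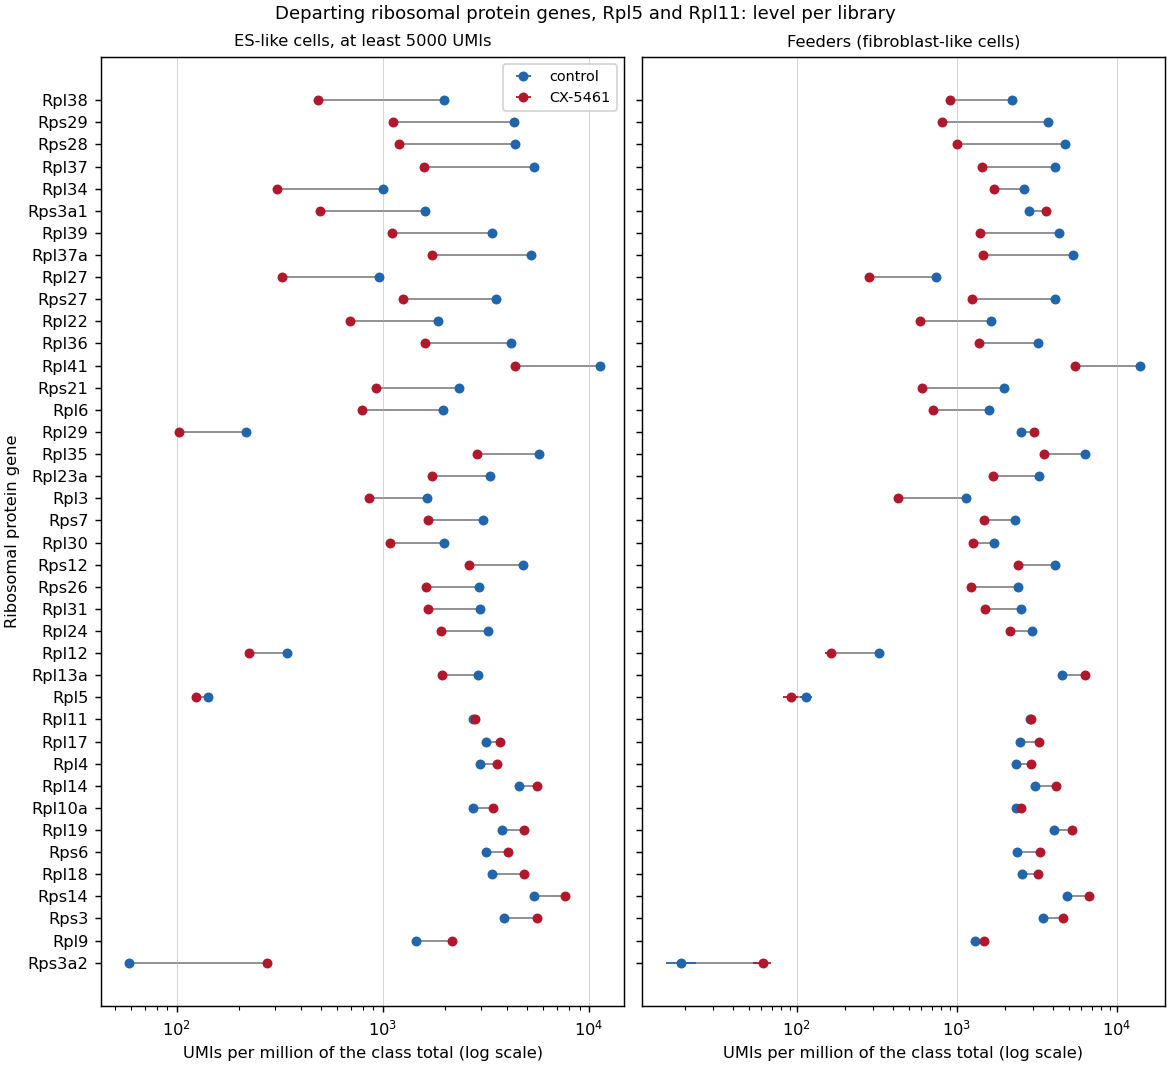
Level of each departing member, and of Rpl5 and Rpl11, in the control (blue) and CX-5461 (red) libraries, in CPM on a log axis, for ES-like cells (left) and feeders (right), with exact 95% Poisson bars that are mostly smaller than the points. Genes are ordered by departure in ES cells, from Rpl38 at the top, at 1985 and 486 CPM, to Rps3a2 at the bottom, at 58.3 and 274 CPM.

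Members with the shortest coding sequences were low throughout. The 9 members with a coding length of up to 300 nt (without the stop codon) were Rpl41, Rpl39, Rps29, Rps28, Rpl38, Rps21, Rps27, Rpl37a and Rpl37, and all 9 departed downward in both cell types. Their log2 ratios ran from -2.03 to -1.33 in ES cells and from -2.23 to -1.28 in feeders, with medians of -1.62 and -1.72. The limit of 300 nt was chosen after the values were seen. Some longer members reached like values, such as Rpl22 (384 nt) with a log2 ratio of -1.42 in ES cells, with or without its pseudogene copies. The rows of Rpl34 (351 nt) and Rps3a1 (792 nt) were at -1.72 and -1.70 there. With its copies, however, Rpl34 was at -0.74, and Rps3a1 summed with Rps3a2 and Rps3a3 was at -0.08.

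Rpl38 (chr11:114668524-114672331, + strand), a large subunit protein of the ribosome surface known for its part in translating Hox mRNAs, had 1985 CPM in control ES cells (95% interval 1972 to 1999) and 486 CPM with CX-5461 (480 to 492). This was the lowest ratio of any member in ES cells, a log2 ratio of -2.03 (-2.05 to -2.01). In feeders it had 2205 and 905 CPM, a log2 ratio of -1.28 (-1.34 to -1.23), higher than in ES cells. Rps29 (chr12:69157722-69159186, - strand), a zinc-binding protein of the small subunit head, had 4339 CPM in control and 1117 CPM in CX-5461 ES cells, and 3710 and 805 CPM in feeders. Its log2 ratios were -1.96 (-1.97 to -1.95) and -2.20 (-2.26 to -2.15). Rps28 (chr17:33819027-33824562, - strand) had 4367 and 1192 CPM in ES cells and 4707 and 1001 CPM in feeders. Its ratio in feeders, -2.23 (-2.28 to -2.18), was the lowest there. Rpl41, with the shortest coding sequence of all members at 75 nt, had 11289 and 4379 CPM in ES cells and 14013 and 5473 CPM in feeders. Its log2 ratio was -1.37 in ES cells and -1.36 in feeders, so the shortest of the 9 was not the lowest of them. Rpl39 on chromosome X, which lines the exit tunnel, had log2 ratios of -1.62 and -1.65. In every one of these genes the control library was the higher in both cell types.

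Beyond the shortest 9, the median ratio of the gene rows rose with coding length up to 600 nt. In ES cells it was lower again above that, for gene rows counted without pseudogene copies. The median log2 ratio in ES cells was -0.77 for the 16 members of 301 to 400 nt, -0.16 for the 22 of 401 to 500 nt and 0.18 for the 8 of 501 to 600 nt. In feeders the same ranges had medians of -0.62, -0.16 and 0.11. The 8 members of 601 to 700 nt, 11 of 701 to 900 nt and 3 over 900 nt had medians of -0.025, -0.13 and -0.51 in ES cells. In feeders these were 0.16, 0.03 and 0.28. The 3 over 900 nt were Rpl3, Rplp0 and Rpl4. With UMIs of their pseudogene copies added they were at 0.17, 0.04 and 0.27 in ES cells. In feeders they were then at -0.41, 0.07 and 0.30. The lower ES medians above 600 nt thus rest in part on which rows are counted. Over the 77 coding members, Spearman's rho between coding length and the log2 ratio was 0.55 in ES cells and 0.67 in feeders (Pearson's r on log2 length 0.56 and 0.64). Over the 68 members longer than 300 nt rho was 0.37 and 0.54. With the annotated length of the whole mRNA, for which several members have isoforms of quite different lengths, rho was 0.29 and 0.36. With the GC content of the mRNA it was -0.02 and -0.01, and with the control level 0.21 and 0.08. These are descriptions across genes that share the same libraries, and genes are not replicates.

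**Figure D2:**
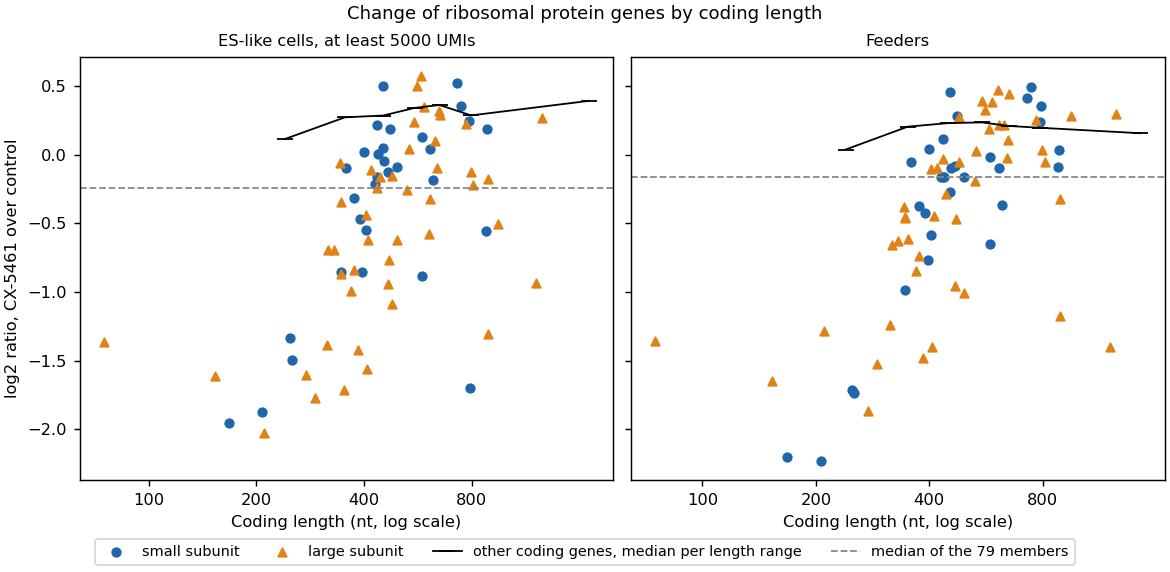
log2 ratio of CX-5461 over control against coding length (log axis) for the 77 coding members, small subunit as circles and large subunit as triangles, in ES-like cells (left) and feeders (right). The dashed line is the median of the 79 members and the black line joins the medians of other coding genes in 7 length ranges, placed at the median length of each: the 9 shortest members lie below -1.2 in both panels while the black line stays above 0.

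Other coding genes of up to 300 nt moved far less than the members of that length. In ES cells the 260 other coding genes of up to 300 nt had a median log2 ratio of 0.12, with quartiles of -0.26 and 0.56, against 0.39 for the 7194 over 900 nt. In feeders the medians were 0.04 over 183 genes and 0.16 over 1811. Among other genes with at least 300 CPM in control, those of up to 300 nt had a median of -0.38 over 51 genes in ES cells and -0.29 over 64 genes in feeders. Set against other coding genes of their own length range, at any level, 71 of the 77 coding members were lower in ES cells, by a median of -0.59, and 60 in feeders, by a median of -0.39. Most of those genes had under 300 CPM in control. In ES cells, members of 301 to 400, 401 to 500 and 501 to 600 nt were at -0.77, -0.16 and 0.18. Other genes of these ranges with at least 300 CPM were at -0.05, 0.09 and 0.22. Members of 601 to 700, 701 to 900 and over 900 nt, as gene rows without copies, were at -0.025, -0.13 and -0.51. Other genes of that level there were at -0.06, -0.16 and -0.28.

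Paralogs of equal coding length differed in their ratios. Rps27, Rps27rt and Rps27l each have a coding length of 252 nt. Rps27, a zinc-binding small subunit protein, had 3552 CPM in control and 1256 CPM in CX-5461 ES cells, a log2 ratio of -1.50 (-1.51 to -1.49). Rps27rt, a retrotransposed copy, had 3283 and 1055 CPM, a log2 ratio of -1.64 (-1.65 to -1.62). Rps27l, which is known as a p53 target, had 1855 and 2321 CPM, a log2 ratio of 0.32 (0.31 to 0.34), and was thus higher where its like were lower. In feeders the same ratios were -1.73 for Rps27, -1.86 for Rps27rt and -0.01 (-0.05 to 0.04) for Rps27l. Rpl39l, a paralog with the same coding length as Rpl39, 153 nt, had 155 and 258 CPM in ES cells, a log2 ratio of 0.74 (0.70 to 0.78), and 40.6 and 26.5 CPM in feeders, a log2 ratio of -0.62 (-0.98 to -0.26). Rpl22l1 was at -1.22 in ES cells and -0.75 in feeders, on the side of Rpl22, which was at -1.42 and -1.48. Rpl36al was at -1.03 and -1.04, and Rpl7l1 at -0.45 in both. Rpl10l was at -0.28 and Rps4l at 0.00 in ES cells, and Rps4l at 0.20 in feeders, where Rpl10l had 8 and 4 UMIs and was not compared. Rpl3l had 29 and 150 UMIs in ES cells and 0 in feeders, and was not compared either.

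The low share of the shortest members held in nearly every cell. Of the UMIs of coding members, the 9 shortest took a median of 14.3% per control ES cell (quartiles 13.5% and 15.2%) and 5.80% per CX-5461 ES cell (5.36% and 6.25%). Midway between these medians, at 10.0%, 1 of 2344 control cells lay below and 0 of 3928 CX-5461 cells above. The 9 were grouped after their values in these same libraries were seen, so this separation describes the cells and is not a test. The feeders of each library stood with the ES cells of that library, at medians of 16.1% and 6.02%. So did the 2C-like cluster (cells with markers of the 2-cell embryo), at 13.0% over 12 control cells and 5.6% over 96 CX-5461 cells. A shallow cluster of 1155 control cells, with a median of 2354 UMIs and left without a name for its low depth although its ES marker sum was 1.08 of that over all cells, was at 18.5%. A CX-5461 ES-like cluster of 478 cells with a median mitochondrial share of 15.7% was at 6.10%. In each of these clusters the value stood with its library. Cells of a library share the treatment as well as capture and sequencing, which cannot be told apart.

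**Figure D3:**
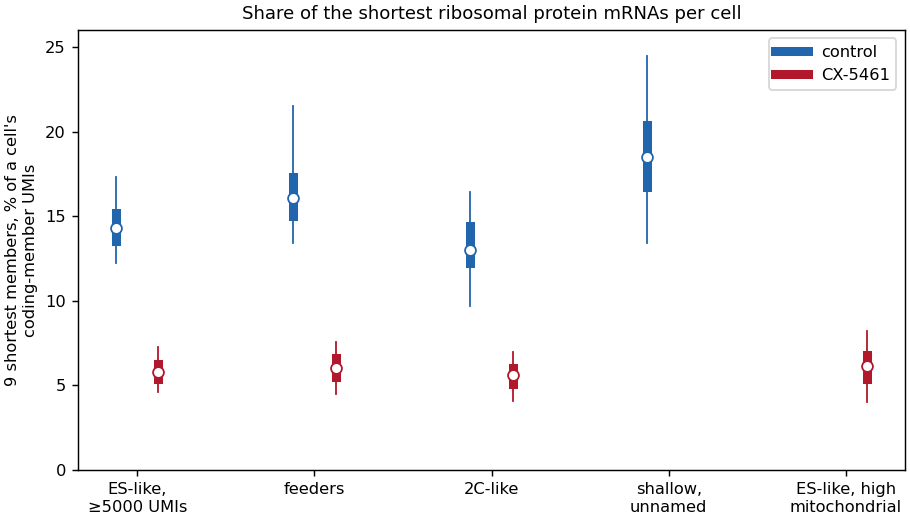
Share of the 9 shortest members in each cell's coding-member UMIs, in percent, by cell cluster, for control (blue) and CX-5461 (red). Circles are medians over cells, thick bars quartiles and thin lines the central 95% of cells: every control median lies at 13.0% or above, and every CX-5461 median at 6.10% or below.

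The other members that departed downward were longer, and for many of them UMIs were also counted at pseudogene rows of like sequence. How reads that match both were assigned is not given in the sources used here. After the shortest 9, those low in both cell types were Rpl27, Rpl22, Rpl36, Rpl6, Rpl35, Rpl23a, Rpl3, Rps12, Rps26 and Rpl31, which brings the members low in both to 19. Rpl34, Rps3a1, Rpl29, Rps7, Rpl30 and Rpl24 were low by the rule in ES cells and not in feeders, and Rpl12 in feeders and not in ES cells. Whether these differ between the cell types was not tested. For each coding member, pseudogene rows whose transcript matched its mRNA at 90% identity or more over at least 0.5 of the copy were collected, 1027 rows in all. These rows held 28.8% of the UMIs of members and copies in control ES cells and 30% with CX-5461, and 22.1% and 21.4% in feeders.

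With the copies added to their genes, 18 of the 25 low members in ES cells still departed downward, all of the shortest 9 among them. The other 9 were Rps3a1, Rpl22, Rpl36, Rps12, Rpl35, Rpl31, Rps26, Rpl34 and Rpl24. For Rps3a1 this left out Rps3a2 and Rps3a3, which are members themselves, and with those it did not depart. Rpl30, Rpl27, Rpl23a, Rps7, Rpl6, Rpl3 and Rpl29 no longer departed downward. Rpl6, a large subunit protein, had 1965 CPM in control and 793 CPM in CX-5461 ES cells, a log2 ratio of -1.31, which became -0.10 with its 10 copies. Its copies held 57.0% of the family's UMIs in control and 81.3% with CX-5461. In feeders its ratio of -1.17 became 0.01, with copies at 58.7% and 81.8%. The shift toward the copies was thus alike in both cell types of a library. Rpl3, which lies next to the peptidyl transferase centre, went from -0.93 to 0.17 in ES cells and from -1.40 to -0.41 in feeders. Rpl27 went from -1.56 to -0.57 and from -1.40 to -0.30, and Rpl34 from -1.72 to -0.74 in ES cells but from -0.61 to -0.79 in feeders. Rpl22, by contrast, had copies holding 0.0766% of its family's UMIs in control ES cells and stayed at -1.42.

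**Figure D4:**
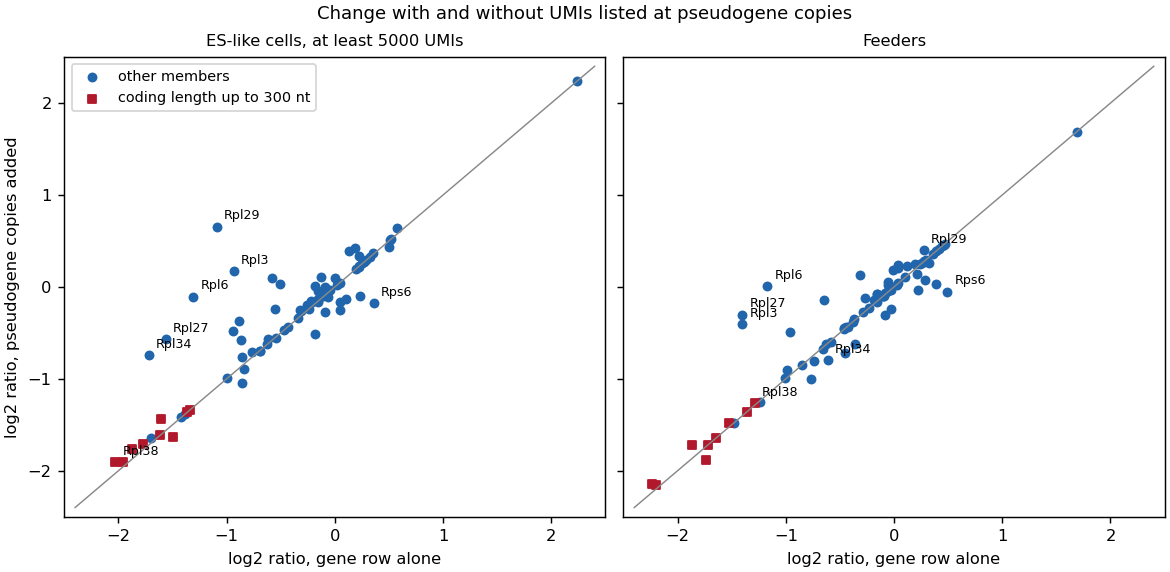
log2 ratio of CX-5461 over control with pseudogene copies added (vertical axis) against that of the gene row alone (horizontal axis) for the 79 members, in ES-like cells (left) and feeders (right). The diagonal marks no change: the 9 shortest members (red squares) stay below -1.2 on both axes, whereas Rpl6 moved from -1.31 to -0.10 and Rpl29 from -1.09 to 0.66 in ES cells.

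Rps3a1 and its copies gave the clearest case. RPS3A is a small subunit protein near the mRNA exit. In ES cells Rps3a1 (chr3:86137940-86142702, - strand) had 1603 CPM in control and 494 CPM with CX-5461, a log2 ratio of -1.70 (-1.72 to -1.68). Rps3a2 (chr14:88123017-88123808, - strand) had 58.3 and 274 CPM, a log2 ratio of 2.24 (lower bound 2.17), the highest of any member. Rps3a3 (chr13:108670603-108671397, + strand) had 3680 and 4285 CPM, a log2 ratio of 0.22 (0.21 to 0.23). Summed, they had 5341 and 5053 CPM, a log2 ratio of -0.08 (-0.09 to -0.07), which is 0.16 above the members' median and no departure. Rps3a1 took 30% of the sum in control ES cells and 9.77% with CX-5461, but 94.2% and 95% in feeders. There the sum was at 3001 and 3820 CPM, a log2 ratio of 0.35 (0.31 to 0.38). The values of these rows singly are therefore uncertain.

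Coding members that departed upward did so by at most 0.81 in ES cells and 0.65 in feeders. Of all members, pseudogene symbols included, Rpl14, Rpl19, Rps6, Rps14, Rps3 and Rps3a2 departed upward in both cell types, Rpl4, Rpl10a, Rpl18 and Rpl9 in ES cells, and Rps3a1, Rpl13a and Rpl17 in feeders. Rps3, which lines the mRNA entry channel and is also known as a DNA repair protein, had 3875 CPM in control and 5565 CPM in CX-5461 ES cells, a log2 ratio of 0.52 (0.51 to 0.53), and 3430 and 4580 CPM in feeders, a log2 ratio of 0.42 (0.39 to 0.45). Rps14, of the small subunit platform, had 5394 and 7658 CPM, then 4889 and 6715 CPM, with ratios of 0.51 and 0.46. Rpl9, of the large subunit stalk base, had the highest ratio of a coding member in ES cells, with 1454 and 2164 CPM and a log2 ratio of 0.57 (0.56 to 0.59). In feeders it was at 0.19. Rps6, the small subunit protein phosphorylated by S6 kinase, was at 0.36 and 0.49, but at -0.18 and -0.05 with its copies. With copies added to all members, 6 of the 10 in ES cells still departed upward, and Rps6, Rpl4, Rpl14 and Rpl10a did not. Rps9, Rpsa and Rpl29 then departed upward as well. In feeders 6 of the 9 still did, Rps6, Rpl17 and Rps3a1 did not, and Rpl29 was added. These departures are from the members' median with copies, which was higher than that of the rows alone. Relative to the median of all genes, which was itself above 0, only Rps3a2 lay at least 0.5 higher in either cell type, so the upward departures are departures from the family.

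Rpl5 and Rpl11 stayed near the common change. Rpl5 (chr5:107900502-107909005, + strand) had 141 CPM in control (95% interval 137 to 145) and 124 CPM in CX-5461 ES cells (122 to 127), a log2 ratio of -0.18 (-0.23 to -0.13) and a departure of 0.06. In feeders it had 114 and 91.5 CPM, a log2 ratio of -0.32 (-0.52 to -0.12) and a departure of -0.16. Its 9 copies held 91.3% of the family's UMIs in control ES cells, so most UMIs of the family were counted at copies, and with them the ratio was 0.01 in ES cells and 0.13 in feeders. Rpl11 (chr4:136028265-136053428, - strand) had 2725 and 2807 CPM in ES cells, a log2 ratio of 0.04 (0.03 to 0.05) and a departure of 0.28. In feeders it had 2862 and 2920 CPM, a log2 ratio of 0.03 (-0.01 to 0.07). Its 10 copies held 44.7% of the family's UMIs in control and 36.1% in CX-5461 ES cells, and with them the ratio was -0.17 in ES cells, a departure of 0.00, and 0.02 in feeders. Neither gene reached the rule in either cell type.

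Genes around the RPL5 and RPL11 particle differed in size and side. Mdm2 had 32.3 CPM in control and 130 CPM in CX-5461 ES cells, a log2 ratio of 2.01 (1.93 to 2.10), and 202 and 209 CPM in feeders, a log2 ratio of 0.05 (-0.09 to 0.19). Cdkn1a, the p53 target that encodes the cell cycle inhibitor p21, was at 2.07 in ES cells (127 and 535 CPM) and 0.88 in feeders (1351 and 2494 CPM). Mdm4 was at 0.82 and -0.34, and Trp53, the p53 gene itself, at 0.17 and 0.15. Of the proteins that assemble the particle into the ribosome, Rrs1 was at -1.30 (26.4 and 10.7 CPM), Rpf2 at 0.26 and Heatr3, the importer of RPL5, at -0.23 in ES cells, and all were below the count minimum in feeders. Among 12 members reported to bind MDM2, Rps27, Rps7 and Rps26 departed downward and Rps3 and Rps14 upward in ES cells, and the list's median log2 ratio was -0.15 (-0.09 in feeders), near that of all members.

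Small subunit members were higher than large subunit members as a group. The median log2 ratio in ES cells was -0.09 over 33 small subunit members and -0.47 over 46 large subunit members, a difference of 0.38. In feeders the medians were -0.16 and -0.30, a difference of 0.14. Downward departures in ES cells counted 8 small and 17 large subunit members, and upward ones 4 and 6. The difference rested in part on the rows and lengths counted. Over the 68 coding members longer than 300 nt it was 0.24 in ES cells and 0.01 in feeders, and with pseudogene copies added it was 0.06 and 0.10. The share of UMIs went from 12.9% to 11.7% for the small subunit and from 16.3% to 12.4% for the large subunit in ES cells.

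Smaller groups by function or place held members on both sides of the common change. The P stalk recruits elongation factors to the ribosome. Its Rplp0, Rplp1 and Rplp2 were at -0.51, -0.06 and -0.34 in ES cells and 0.28, -0.38 and -0.46 in feeders. A list of 12 members mutated in Diamond-Blackfan anaemia, an inherited failure of red cell production, had a median of -0.28 in ES cells and -0.24 in feeders. Of the list, Rps29, Rps7 and Rps26 departed downward in ES cells. The list does not hold every member reported in this disease, so its median holds for the listed genes only. The 30 members with a snoRNA gene inside them had a median departure of 0.06 in ES cells and 0.03 in feeders, and the 47 coding members without had -0.09 and 0.00. The 4 members on chromosome X ran from a departure of -1.38 for Rpl39 to 0.49 for Rps4x in ES cells. Fau, which encodes a ribosomal protein fused to a ubiquitin-like sequence and stands outside the symbol rule, was at -0.38 in ES cells and -0.07 in feeders.

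Other genes with TOP mRNAs lay above the ribosomal proteins. The median over 15 of them was 0.09 in ES cells and 0.16 in feeders. The shortest coding sequence among them was that of Tpt1, at 516 nt. Members of 501 to 600, 601 to 700, 701 to 900 and over 900 nt had medians of 0.18, -0.025, -0.13 and -0.51 in ES cells. In feeders these were 0.11, 0.16, 0.03 and 0.28, so there members of such lengths were not clearly lower. Pseudogene copies were not added for the 15 genes. In ES cells 6 of the 15 lay at least 0.5 below and 1 above the median of all genes, where 20.5% and 23.8% of all genes did. In feeders these counts were 1 and 1, where 18.5% and 16.8% of all genes did. Eef1b2, an elongation factor subunit, was the highest in both, with 1396 and 2549 CPM in ES cells, a log2 ratio of 0.87, and 0.83 in feeders. Eef1a1 was at 0.29 and 0.31 and Rack1, a scaffold bound to the small subunit, at 0.27 and 0.26. Npm1, the nucleolar assembly factor, was at -0.45 in ES cells and 0.04 in feeders, and Hnrnpa1 at -0.46 and -0.90. The chaperones that hold single ribosomal proteins before assembly were few in these data. In ES cells Tsr2, which holds RPS26, was at -0.50, Bccip, which holds RPL23, at -0.19, Aamp at 0.04, Grwd1, which holds RPL3, at 0.07, Pdcd2 at 0.00 and Pdcd2l at 0.57. In feeders only Aamp, at 0.64, and Bccip, at 0.41, passed the count minimum.

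The counts at the rows of a few members differed between the cell types, and most of these differences held in both libraries. These are counts of the gene rows alone, without pseudogene copies, so they need not be differences of the genes. Taken as feeders over ES cells, the members' median log2 ratio was -0.17 in control and -0.15 in CX-5461, against -0.25 and -0.35 over 8728 and 10662 genes. At least 0.5 from that median lay 13 members in control and 12 in CX-5461, a small part of the 79 where 69.1% and 71.7% of all genes lay that far from their own median. The 10 that did so in both libraries on the same side were Rps3a3, Rps3a2 and Rpl7a, lower in feeders, and Rplp0, Rpl13a, Rps13, Rps3a1, Rpl34, Rpl29 and Rps2, higher. Rps2, the small subunit protein at the mRNA entry, had 163 CPM in control ES cells and 5698 CPM in control feeders, a log2 ratio of 5.13 (5.09 to 5.16), and 111 and 5368 CPM with CX-5461, a log2 ratio of 5.60. Its copies held 99.0% of the family's UMIs in control ES cells and 27.5% in control feeders. Rpl29 had 217 CPM in control ES cells and 2521 CPM in control feeders, with copies at 89.5% and 8.19%. Rps3a3, in turn, had 3680 CPM in control ES cells and 154 CPM in control feeders. In these genes the row that took the UMIs differed between the cell types in both libraries.

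**Figure D5:**
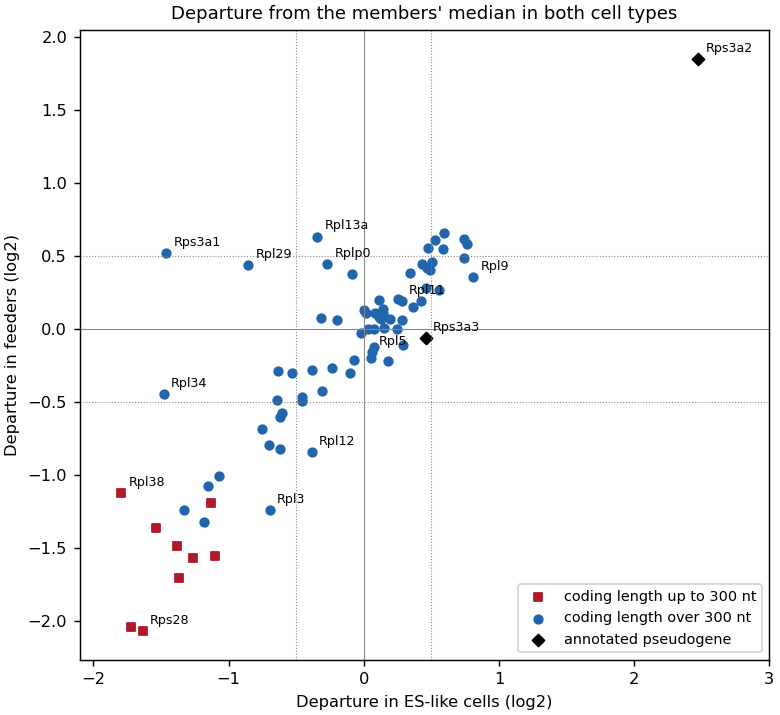
Departure of each of the 79 members from the members' median log2 ratio in feeders (vertical axis) against that in ES-like cells (horizontal axis), with dotted lines at 0.5 on either side of 0. The 9 shortest members (red squares) lie at the lower left, and Rps3a1, Rpl29, Rpl13a and Rplp0 lie below 0 in ES cells and above 0 in feeders, Rps3a1 at -1.46 and 0.52.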

How the data were processed

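Raw UMI counts for every gene row and barcode were deposited by the authors, 1 table for control (3838 barcodes, 49610287 UMIs) and 1 for CX-5461 (4922 barcodes, 69841836 UMIs). Per the labels and methods, libraries were made with 10x 3′ V2 chemistry, with bead size selection whose part in the values was not tested, and counted with a published droplet pipeline on mm10. The submitters' notes name Seurat 2.3.4. How reads matching several genes were counted is not given in the sources used here beyond a column of shared counts, which reached 343 for any member. Barcodes are numbered only, so barcodes shared between libraries could not be counted by sequence.

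Barcodes of 500 or more UMIs and a mitochondrial share up to 0.2 were kept (3767 and 4697), as in the methods. They were clustered with scanpy 1.11.5 (2000 variable genes, 16 components, 15 neighbours, Leiden resolution 0.5) without ribosomal protein rows, and no doublet caller was run. Clusters were named where at least 3 markers of a type stood among the 50 genes of highest fold, or, for ES cells, where the marker sum reached 0.5 of its level over all cells. A cluster whose median UMI count was more than 3 times below its library's, with no marker among its top 10 genes, stayed unnamed. UMIs were summed per class and divided by the class total, as CPM. Ratios have exact conditional binomial intervals and levels exact Poisson intervals, both at 95%, and PCR bias is not covered. No p-value was computed with 1 library per condition. The code was tested on simulated data. Copies were found with BLAST+ 2.17.0. Of the row identifiers, 54079 matched GENCODE M21 (GRCm38), the source of coordinates and coding lengths (principal transcript). The genes named are the departing members, Rpl5, Rpl11, the 3 highest and 3 lowest per class, and the genes of the lists. The members and lists were chosen with earlier results of these data known. A gene of the lists is not reported here.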

Additional observations from a re-analysis of the deposited data

Results flagged for a closer look

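A few members stood on opposite sides of the common change in ES cells and in feeders, by at least 0.25 each. The difference between the cell types was not tested, since each condition is 1 library. Rps3a1 departed by -1.46 in ES cells and by 0.52 in feeders. Rpl29 departed by -0.85 in ES cells and by 0.43 in feeders. Rpl13a departed by -0.34 in ES cells and by 0.63 in feeders. Rplp0, the anchor of the P stalk, departed by -0.27 in ES cells and by 0.44 in feeders. In each the pseudogene copies, or for Rps3a1 the rows Rps3a2 and Rps3a3, held a larger share of the family's UMIs in ES cells than in feeders. With copies added, the log2 ratio was 0.66 in ES cells and 0.40 in feeders for Rpl29, 0.09 and 0.47 for Rpl13a, and 0.04 and 0.07 for Rplp0. Each of these lay above the members' median with copies in both cell types, so the sides no longer differed. Rps3a1, Rps3a2 and Rps3a3 summed lay 0.16 above the members' median in ES cells and 0.51 above it in feeders.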

How the results depend on the processing

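No paired analysis was possible because the deposited columns carry no sample of origin, so the replicate numbers of the labels cannot be placed. In ES cells the common change of -0.24 was -0.27 with all ES-like cells that passed the study's filter (the shallow unnamed cluster not among them), -0.23 with every cell given equal weight, -0.23 with cells thinned to 5000 UMIs, -0.64 with a TMM factor and -0.34 against the total of other genes. Alternatives chosen after seeing the data gave -0.17 with pseudogene rows added by sequence, -0.18 over members longer than 300 nt, -0.26 without the annotated pseudogenes and -0.59 relative to other genes of the same length range. In feeders the common change of -0.16 was -0.32 with a TMM factor, -0.26 against the total of other genes, -0.12 with pseudogene rows, -0.10 over members longer than 300 nt and -0.39 relative to genes of the same length range. The small minus large subunit difference in ES cells, 0.38, was 0.39 with equal weight per cell, 0.39 when thinned, 0.28 with named -ps rows, 0.059 with pseudogene rows, 0.24 over members longer than 300 nt, 0.35 without the annotated pseudogenes and 0.40 against genes of the same length range. In feeders, 0.14 became 0.21 without cells holding a Pou5f1 UMI, 0.25 with equal weight per cell, 0.22 when thinned, 0.10 with pseudogene rows and 0.008 over members longer than 300 nt. The 35 departing genes in ES cells became 56 at a departure of 0.25 and 16 at 1, and the 29 in feeders became 51 and 15. All other alternatives kept these counts within 1.5 times. Single members changed side as follows. With named -ps rows Rpl3 was at 0.40 in ES cells. With pseudogene rows by sequence Rpl6 was at 0.06, Rpl29 at 0.82, Rpl3 at 0.34 and Rps6 at -0.012 in ES cells, and Rpl6 at 0.13 in feeders. Depth did not limit the members, all of which passed the count minimum, but intervals in feeders were wider, and spread between cultures could not be measured.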
